A study of Drosophila melanogaster with 36 samples.

Results

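The genes described here are named genes of chromosome 4 of Drosophila melanogaster, a list of 42 genes, in adult flies of 3 strains. A row of the platform was taken for a gene where its listed symbol, current or older, was that of a listed gene, and 33 of the 42 had one, of 10861 genes with a row in the series. Of these 33, 32 had enough values to be tested. The genes were chosen by their chromosome and by having a name, with the strain differences of these same arrays in view, and which of those values weighed in the choice is not recorded. Counts over the list are therefore descriptions and support nothing. All 33 lie on chromosome 4 in the RefSeq gene table of assembly Release 6. The table holds 114 genes of this chromosome, 54 of which had a row, and 21 others besides the 32 were tested.

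Antennapedia[73b] flies carry an allele of the homeotic gene Antennapedia, Apterous[56f] flies carry an allele of apterous, a homeodomain gene of wing development, and Oregon[R] is the wild type strain. The labels give all 3 as adult flies bought from one supplier. The labels do not state sex, age, rearing or how many extractions were made, and they name no second allele, so the mutant strains may differ from Oregon[R] by more than the named gene. Each of 36 arrays was hybridised with RNA labelled with Cy3 (channel 1) and Cy5 (channel 2), and each of the 9 ordered pairs of strains has 4 arrays, so that 12 arrays set a strain against itself and 24 compare different strains with the colours exchanged.

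Chromosome 4 is the small dot chromosome of the fly. Its genes lie among repeats in chromatin that carries the heterochromatin protein HP1a, and most are nevertheless transcribed. The chromosome-specific protein Pof binds its active genes and raises their output, and the histone methyltransferase Egg acts on its chromatin. Among the named genes are the Pax6 genes ey and toy of eye development, ci of Hedgehog signalling, ligands of the TGF-beta family and genes of the synapse, the ribosome and the mitochondrion.

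The deposited value of a spot is a signed fold between the channels, with 1 decimal. Values here are log2 ratios coded as channel 1 over channel 2, and a difference between strains is a log2 difference fitted over all 36 arrays with a dye term (limma). The labels do not state which channel a positive fold favours. If the deposited ratio is channel 1 over channel 2, a plus difference is a higher transcript level in the first-named strain, and otherwise it is a lower one. A gene is called where its adjusted p, taken over all 13355 features tested, is under 0.05. On arrays of 2 strains the ratios are turned so that the strain named first stands on top. The RNA is bulk RNA of adult flies, so fewer cells of a type and less RNA per cell cannot be told apart.

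Every array had 26362 to 30716 spots with a value, and 19.1% of values were at a fold of 1, with the next step at 0.14 on the log2 scale, so the scale is coarse for the small differences of these genes. The SE of a member's difference ran from 0.039 to 0.088, with a median of 0.058 in Antennapedia[73b] against Oregon[R]. The number of arrays limits this precision, and since the labels do not tie arrays to separate extractions, the p-values cover only how arrays vary, which may be technical variation. The members' dye offset, fitted beside the strains, had a median of 0.08, it was above 0 in 25 of 32, and the median for all other genes was 0. Its source was not tested. It ran from -0.24 for unc-13 to 0.43 for Pur-alpha.

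In both mutant strains named genes were called more often with a plus than with a minus difference from Oregon[R]. For Antennapedia[73b] against Oregon[R] 10 of 32 were called plus and 2 minus. Of all features tested 23.2% were called there, 11.7% plus and 11.5% minus, and of all other genes 24.7%, 12.4% plus and 12.3% minus. The median difference of the 32 was 0.06, with 24 above 0, and that of all other genes was 0, with 48.9% above 0. For Apterous[56f] against Oregon[R] 11 were called plus and 1 minus. Of all features 15.9% were called, 8.45% plus and 7.44% minus, and of all other genes 15.7%, 7.97% plus and 7.7% minus. Plus calls were thus 53.2% of all calls, and 40.6% with arrays left uncentred, where members had 9 plus and 1 minus. The members' median was 0.09, with 24 of 32 above 0, against -0.01 and 46.2% for all other genes. These comparisons share the Oregon[R] arrays and so are not independent of each other.

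Between the mutant strains the members stood on either side. With Antennapedia[73b] against Apterous[56f] 3 were called plus and 3 minus, a share of 18.8%, with 15.6% of all features called, 8.27% plus and 7.35% minus, and 16.3% of all other genes, 8.96% plus and 7.29% minus. Plus calls were 53% of all calls, and 62.7% with arrays left uncentred, where members had 3 plus and 2 minus. The members' median was -0.01. All differences of members were small: the largest fold was 1.37, that of yellow-h in Apterous[56f] against Oregon[R]. Unadjusted p-values under 0.05 numbered 13, 14 and 9 of the 32 in the 3 comparisons in the order given (40.6%, 43.8% and 28.1%), and all features had shares of 33.5%, 28.6% and 27.1%.

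**Figure D1:**
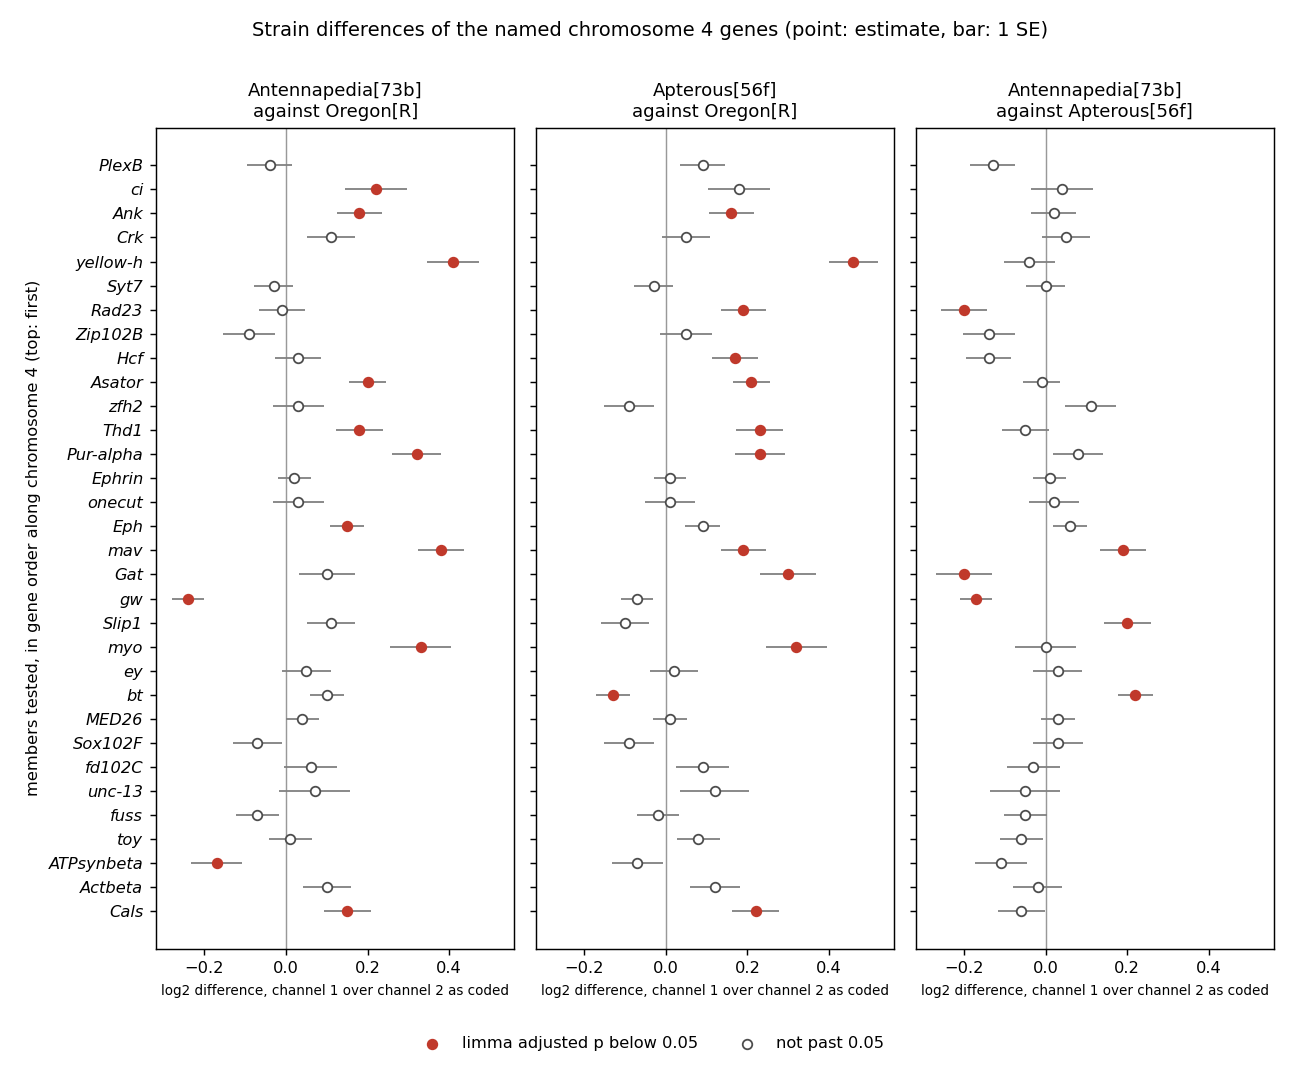
Log2 difference (horizontal axis, point, with 1 SE as the bar) of the 32 tested members, in gene order down the vertical axis, in each comparison; filled points are called. In both comparisons with Oregon[R] most filled points lie right of 0, with yellow-h farthest at 0.41 and 0.46, and between the mutant strains 3 lie on each side.

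The ligands of the TGF-beta family gave some of the largest values. mav (maverick) encodes a secreted ligand of this family made, among other cells, by glia. With Antennapedia[73b] in channel 1 its ratio to Oregon[R] was 0.47, 0.34, 0.00 and 0.32, and with Oregon[R] in channel 1 it was 0.20, 0.41, 0.51 and 0.32. No array lay below 0. The difference was 0.38 (SE 0.056, limma adjusted p = 3.8e-07), a fold of 1.31, and it was called in each of 4 subsets of the arrays (0.33 to 0.44). These subsets are the first or last 2 arrays of every group, and the even-numbered or odd-numbered arrays. They are splits by array number, not batches named in the labels, and each array is in 2 of them.

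With Apterous[56f] against Oregon[R] mav had 0.44, 0.43, 0.14 and 0.36 with Apterous[56f] in channel 1, and 0.07, 0.00, 0.37 and 0.20 with Oregon[R] in channel 1. The difference was 0.19 (limma adjusted p = 0.014), and the call was lost in 4 of 18 other settings (0.15 to 0.25). mav also differed between the mutants by 0.19 (limma adjusted p = 0.011), with ratios of 0.07, 0.32, 0.32 and 0.19 with Antennapedia[73b] in channel 1 and 0.04, 0.20, 0.13 and 0.78 with Apterous[56f] in channel 1. The highest of these is array 73, and without it the difference was 0.14 (limma adjusted p = 0.065). Of 18 other settings 5 lost this call (0.11 to 0.28).

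myo (myoglianin) encodes another secreted TGF-beta ligand, which acts in neuron remodelling and is made in muscle and glia. Its ratios in Antennapedia[73b] against Oregon[R] were 0.56, 0.17, 0.56 and 0.32 with Antennapedia[73b] in channel 1, and 0.32, 0.07, 1.14 and 0.07 with Oregon[R] in channel 1. All 8 were above 0 but spread widely. The difference was 0.33 (SE 0.075, limma adjusted p = 7e-04), and 0.14 in odd-numbered arrays alone (limma adjusted p = 0.33). In Apterous[56f] against Oregon[R] the ratios were 0.43, 0.38, 0.07 and 0.31 with Apterous[56f] in channel 1, and -0.07, -0.06, 0.65 and 0.31 with Oregon[R] in channel 1. The difference there was 0.32 (limma adjusted p = 0.0014), with the call lost in 3 of 18 other settings (0.21 to 0.44), and between the mutants it was 0. The third ligand, Actbeta (Activin-beta), was not called, with 0.10 and 0.12 against Oregon[R] (limma adjusted p = 0.23 and 0.19).

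Partners of these ligands did not pass the test. Of 6 listed receptors, Smads and ligands of the activin branch all 6 were tested and limma called 0 in each comparison, with 1, 0 and 1 at an unadjusted p under 0.05. Their medians were -0.03 in Antennapedia[73b] against Oregon[R], 0 in Apterous[56f] against Oregon[R] and -0.02 between the mutants.

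Among receptors and adaptors, Eph, the receptor tyrosine kinase of axon guidance, was called in Antennapedia[73b] against Oregon[R], with a difference of 0.15 (SE 0.042, limma adjusted p = 0.0049). Its direct ratios there averaged 0.14 ± 0.14 (SD, n = 8). For Apterous[56f] against Oregon[R] it had 0.09 (limma adjusted p = 0.14). The ligand Ephrin, measured by 2 elements, had 0.02 and 0.01. Slip1, which binds the potassium channel Slowpoke, was called between the mutants, at 0.20 (SE 0.058, limma adjusted p = 0.011). Its ratios ran from 0.37 to 0.54 with Antennapedia[73b] in channel 1 and from -0.13 to 0.19 with Apterous[56f] in channel 1. The dye offset was 0.19, and 1 of 4 subsets was called alone (0.19 to 0.22). Against Oregon[R] Slip1 had 0.11 in Antennapedia[73b] and -0.10 in Apterous[56f], neither called. Crk, an adaptor of receptor signalling, had 0.11, 0.05 and 0.05 in the 3 comparisons. PlexB, a semaphorin receptor, had -0.04, 0.09 and -0.13. Neither was called. Of 7 listed semaphorins and plexin effectors 4 were tested. otk, a plexin-associated receptor, was called plus in Antennapedia[73b] against Oregon[R] (0.16, limma adjusted p = 0.012). That is 25% of the 4, beside 23.2% of all features.

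Of 11 transcription and chromatin genes tested, 2 (18.2%) were called in each comparison with Oregon[R], both plus, where 23.2% of all features were called in Antennapedia[73b] and 15.9% in Apterous[56f]. Pur-alpha, a protein that binds single-stranded nucleic acid, had 0.65, 0.63, 0.96 and 0.56 with Antennapedia[73b] in channel 1, and -0.29, -0.19, 0.27 and -0.17 with Oregon[R] in channel 1. The colours of the arrays part these values completely: on arrays of a strain against itself its ratio ran from 0.06 to 0.63. The difference fitted beside that dye offset was 0.32 (SE 0.061, limma adjusted p = 6.9e-05), and with no dye term it was 0.32 with a limma adjusted p of 0.1. With Apterous[56f] against Oregon[R] Pur-alpha had 0.39, 0.81, 0.91 and 0.89 with Apterous[56f] in channel 1, and -0.54, -0.32, -0.42 and 0.27 with Oregon[R] in channel 1. Its difference was 0.23 (limma adjusted p = 0.0053), and the call was lost in 6 of 18 other settings, among them the direct arrays alone and no dye term (0.11 to 0.35 over the 18).

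ci, the Gli-type transcription factor of Hedgehog signalling, had values on the 18 even-numbered arrays only. Its ratios in Antennapedia[73b] against Oregon[R] were 0.31 and -0.07 with Antennapedia[73b] in channel 1, and 0.26 and 0.38 with Oregon[R] in channel 1. The difference was 0.22 (SE 0.076, limma adjusted p = 0.038), and the call was lost in 7 of 14 other settings (0.18 to 0.24 over the 14). Among these were uncentred arrays (0.19, limma adjusted p = 0.088) and the direct arrays alone (limma adjusted p = 0.18). The call was also lost in the fit of even-numbered arrays alone, which are all the arrays with a ci value. In Apterous[56f] against Oregon[R] the difference was 0.18 (limma adjusted p = 0.11). Of 12 listed Hedgehog and Wingless partners 7 were tested. smo, the signal transducer of the pathway, was called minus in Antennapedia[73b] against Oregon[R] (-0.26, limma adjusted p = 0.00021). Su(fu), which binds Ci, was called plus in Apterous[56f] against Oregon[R] (0.15, limma adjusted p = 0.027). Each is 14.3% of the 7, beside 23.2% and 15.9% of all features.

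Hcf, a coregulator of chromatin, was called in Apterous[56f] against Oregon[R], at 0.17 (SE 0.056, limma adjusted p = 0.031). Its 8 direct ratios averaged 0.24 ± 0.19 (SD, n = 8) and none was below 0. Without array 56, 66, 67 or 68 it had 0.13 to 0.16 and a limma adjusted p of 0.054 to 0.11. Antennapedia[73b] against Oregon[R] had 0.03.

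No other transcription factor of the list was called in any comparison. Of the Pax6 genes, ey differed from Oregon[R] by 0.05 in Antennapedia[73b] and 0.02 in Apterous[56f], and toy by 0.01 in Antennapedia[73b] and 0.08 in Apterous[56f]. The direct ratios of ey in Antennapedia[73b] against Oregon[R] ran from -0.40 to 0.37, and those of toy from -0.31 to 0.41, so each stood on both sides of 0. In Antennapedia[73b] and Apterous[56f] against Oregon[R] the zinc finger homeodomain gene zfh2 had 0.03 and -0.09. onecut, a neuronal homeodomain gene, had 0.03 and 0.01, the Sox gene Sox102F had -0.07 and -0.09, and the forkhead gene fd102C had 0.06 and 0.09. fuss, of the Ski family, had -0.07 and -0.02, and the Mediator subunit MED26 had 0.04 and 0.01. Between the mutants these 8 ran from -0.06 for toy to 0.11 for zfh2. Of the 7 listed partners of ey, toy and sv in eye development, all tested, limma called 0 in each comparison and 0 had an unadjusted p under 0.05. sv, the Pax2 gene, had values on 21 arrays, from -0.70 to 0.68, and was not tested.

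**Figure D2:**
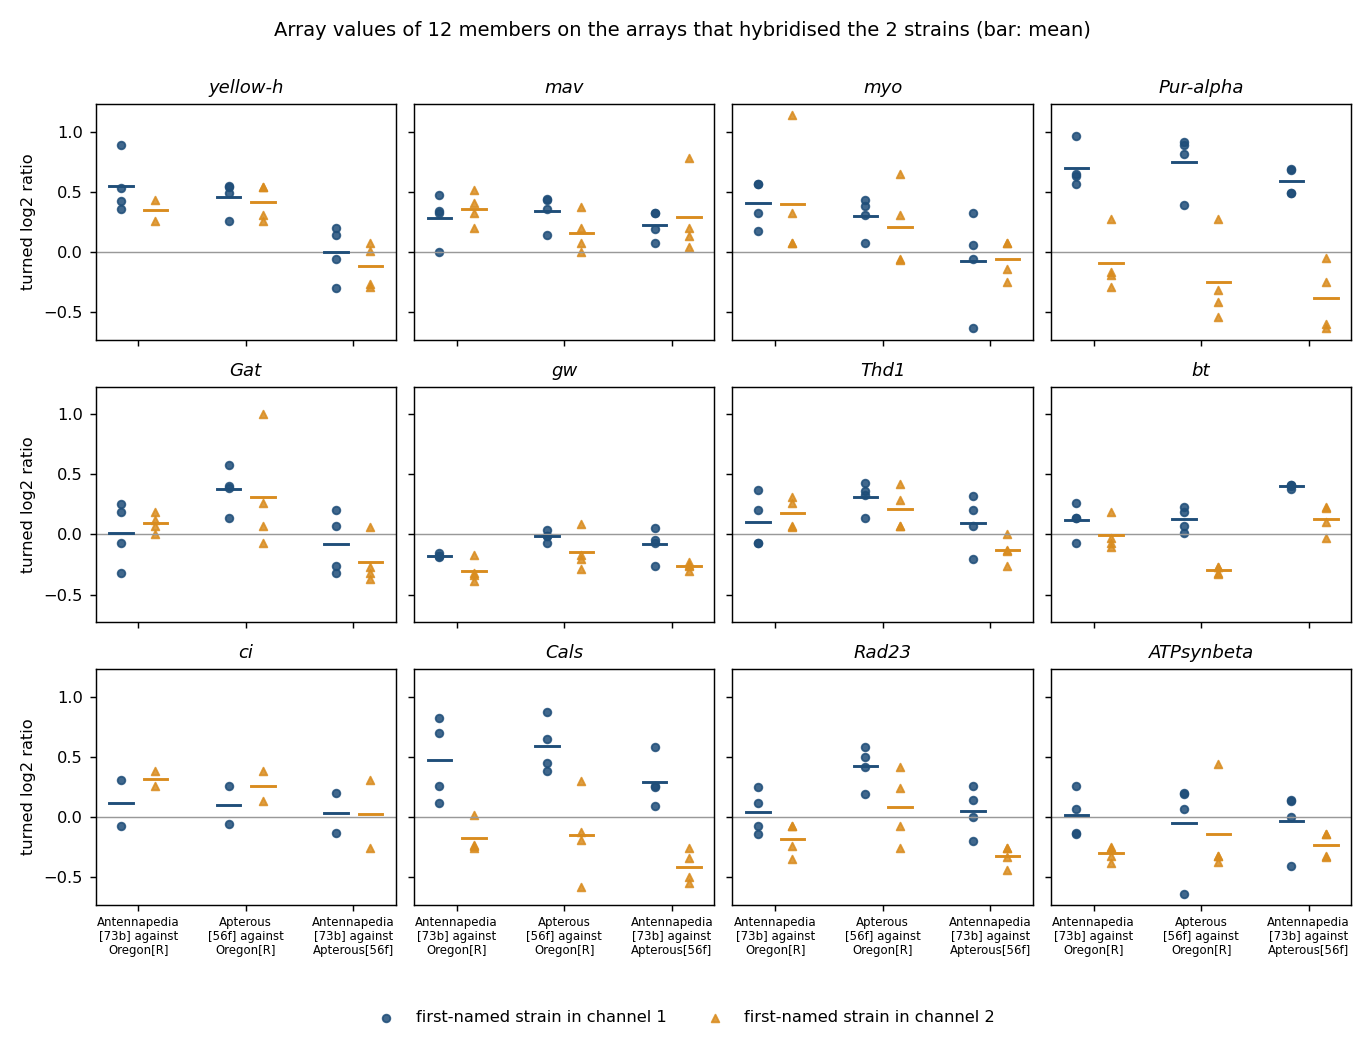
Turned log2 ratio (vertical axis) on each array that compared the 2 strains, for 12 members, by comparison (horizontal axis); circles have the first-named strain in channel 1, triangles have it in channel 2, and bars are means. yellow-h lies above 0 on all arrays against Oregon[R] that had a value (0.26 to 0.89), with none on arrays 50 and 51. gw lies below 0 on all arrays of Antennapedia[73b] against Oregon[R] (-0.39 to -0.15), while the circles and triangles of Pur-alpha and Cals stand apart.

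Of 4 synapse genes tested, 1 was called in Antennapedia[73b] against Oregon[R], beside 23.2% of all features, and 2 in Apterous[56f] against Oregon[R], beside 15.9%. Gat, the GABA transporter of glia, had 0.39, 0.58, 0.14 and 0.40 with Apterous[56f] in channel 1, and 0.07, 0.26, -0.07 and 1.00 with Oregon[R] in channel 1. The difference was 0.30 (SE 0.068, limma adjusted p = 0.0012), and 0.16 to 0.44 in the subsets. The call was lost in 2 of 18 other settings: direct arrays alone (limma adjusted p = 0.054) and even-numbered arrays alone. In Antennapedia[73b] against Oregon[R] Gat had 0.10 (limma adjusted p = 0.32). Between the mutants its ratios were 0.20, 0.07, -0.26 and -0.32 with Antennapedia[73b] in channel 1, and -0.27, -0.32, 0.06 and -0.37 with Apterous[56f] in channel 1. The difference was -0.20 (limma adjusted p = 0.039). This call is near the threshold: without array 57, 60, 61, 63, 65, 66, 67, 70, 71 or 73 the difference was -0.20 to -0.17 with a limma adjusted p of 0.051 to 0.08. In the subsets of arrays it ran from -0.36 to -0.04, with 1 of 4 called, and with the direct arrays alone it was -0.15 (limma adjusted p = 0.26).

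Cals, the fly calsyntenin, a transmembrane protein of synapses, is measured by 2 elements. For Apterous[56f] against Oregon[R] it had 0.38, 0.45, 0.87 and 0.65 with Apterous[56f] in channel 1, and -0.19, 0.30, -0.58 and -0.12 with Oregon[R] in channel 1. These orientations did not overlap, and the dye offset of Cals was 0.32. The difference was 0.22 (SE 0.058, limma adjusted p = 0.0062), with 0.25 and 0.18 in its elements, both called, and the call was lost in 4 of 18 other settings (0.12 to 0.31). For Antennapedia[73b] against Oregon[R] it had 0.12, 0.26, 0.82 and 0.70 with Antennapedia[73b] in channel 1, and 0.02, -0.23, -0.26 and -0.24 with Oregon[R] in channel 1, for a difference of 0.15 (limma adjusted p = 0.048). That call was lost without any 1 of 22 arrays (38, 39, 42, 43, 46, 47, 49, 50, 51, 52, 53, 55, 57, 58, 59, 60, 64, 65, 68, 69, 70 and 72), at 0.12 to 0.16 with a limma adjusted p of 0.05 to 0.15. unc-13, which primes synaptic vesicles, had 0.07 and 0.12 against Oregon[R], and Syt7, a calcium sensor of vesicle fusion, had -0.03 and -0.03. Neither was called.

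General cell functions held both members that were called on the minus side in Antennapedia[73b] against Oregon[R]. gw (gawky) encodes GW182, the partner of Argonaute in silencing by microRNAs. Its ratios were -0.19, -0.15, -0.18 and -0.18 with Antennapedia[73b] in channel 1, and -0.39, -0.34, -0.17 and -0.32 with Oregon[R] in channel 1. All 8 lay below 0. The difference was -0.24 (SE 0.039, limma adjusted p = 2.5e-06), and its 3 elements, at -0.19, -0.26 and -0.30, were each called. Between the mutants gw had -0.07, -0.26, 0.05 and -0.05 with Antennapedia[73b] in channel 1, and -0.25, -0.26, -0.23 and -0.30 with Apterous[56f] in channel 1. The difference was -0.17 (limma adjusted p = 0.0012), with 0.05 on one array the only value above 0 and the call lost in 4 of 18 other settings (-0.22 to -0.13). In Apterous[56f] against Oregon[R] gw had -0.07, 0.04, -0.01 and -0.01 with Apterous[56f] in channel 1, and -0.20, -0.29, 0.09 and -0.17 with Oregon[R] in channel 1. Values lay on both sides of 0 and the difference, -0.07, was not called (limma adjusted p = 0.2). Of 8 listed silencing partners of gw 4 were tested. me31B, a helicase of P bodies, was called minus in Antennapedia[73b] (-0.50) and in Apterous[56f] (-0.48) against Oregon[R]. That is 25% of the 4 in each, beside 23.2% and 15.9% of all features.

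ATPsynbeta is the catalytic beta subunit of the mitochondrial ATP synthase. With Antennapedia[73b] against Oregon[R] it had 0.26, -0.13, 0.07 and -0.14 with Antennapedia[73b] in channel 1, and -0.25, -0.32, -0.26 and -0.38 with Oregon[R] in channel 1. The difference was -0.17 (SE 0.063, limma adjusted p = 0.042), with the minus values mainly on arrays with Oregon[R] in channel 1. Without array 50, 51, 52, 53, 54, 55, 57, 58, 60, 63, 65, 68, 71 or 73 it had -0.18 to -0.14 and a limma adjusted p of 0.05 to 0.076. Its ratios in Apterous[56f] against Oregon[R] were 0.07, 0.20, -0.64 and 0.19 with Apterous[56f] in channel 1, and -0.32, -0.32, 0.44 and -0.37 with Oregon[R] in channel 1. One array in each orientation stood on the opposite side of the other 3. The difference was -0.07 (limma adjusted p = 0.53). All 12 other listed subunits of the enzyme were tested. In Antennapedia[73b] against Oregon[R] ATPsynG was called plus (0.16) and ATPsynCF6 minus (-0.22), and in Apterous[56f] against Oregon[R] blw (-0.24) and ATPsynB (-0.17) were called minus. In each of these comparisons 16.7% of the 12 were called, beside 23.2% and 15.9% of all features. The list's medians were -0.03 and -0.06.

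Thd1, the thymine DNA glycosylase of base excision repair, had ratios of 0.20, 0.37, -0.07 and -0.07 with Antennapedia[73b] in channel 1, and 0.06, 0.07, 0.31 and 0.26 with Oregon[R] in channel 1. Its difference was 0.18 (SE 0.057, limma adjusted p = 0.018). With Apterous[56f] against Oregon[R] it had 0.33, 0.43, 0.14 and 0.36 with Apterous[56f] in channel 1, and 0.07, 0.07, 0.42 and 0.29 with Oregon[R] in channel 1. All 8 were above 0, and the difference was 0.23 (limma adjusted p = 0.0031). The call was lost in 4 of 18 other settings in Antennapedia[73b] and in 2 of 18 in Apterous[56f]. Asator, a tau tubulin kinase, had 0.20 and 0.21 (limma adjusted p = 7e-04 and 0.00052) in Antennapedia[73b] and Apterous[56f] against Oregon[R], and -0.01 between the mutants. Its dye offset was 0.26 and its orientations did not overlap. Against Oregon[R] it had 0.47 to 0.57 with Antennapedia[73b] in channel 1 and -0.20 to 0.22 in the reverse order. For Apterous[56f] these were 0.31 to 0.74 and -0.32 to 0.07. Each call was kept in 2 of 4 subsets. Direct arrays alone gave limma adjusted p = 0.039 and 0.12.

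Rad23, a carrier of ubiquitinated proteins that also acts in DNA repair, was called where Apterous[56f] was compared. Against Oregon[R] it had 0.50, 0.58, 0.19 and 0.42 with Apterous[56f] in channel 1, and -0.07, -0.26, 0.42 and 0.24 with Oregon[R] in channel 1. The difference was 0.19 (SE 0.056, limma adjusted p = 0.014), and 0.15 without array 56 (limma adjusted p = 0.059). For Antennapedia[73b] against Apterous[56f] Rad23 had 0.00, 0.26, -0.20 and 0.14 with Antennapedia[73b] in channel 1, and -0.33, -0.44, -0.26 and -0.26 with Apterous[56f] in channel 1. These orientations did not overlap, and the dye offset of Rad23 was 0.18. The difference was -0.20 (limma adjusted p = 0.0097), and direct arrays alone gave -0.14 (limma adjusted p = 0.23). The call was lost in 8 of 18 other settings in Apterous[56f] against Oregon[R] (0.15 to 0.25) and in 6 of 18 between the mutants (-0.25 to -0.14). With Antennapedia[73b] against Oregon[R] it was -0.01. The zinc transporter Zip102B was not called, with -0.09, 0.05 and -0.14 in the 3 comparisons.

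All 3 cytoskeleton, muscle and pigment genes were called in Apterous[56f] against Oregon[R], 2 plus and 1 minus, where 15.9% of all features were called. The calls of bt and Ank there were not kept in all settings. yellow-h is a secreted protein of the Yellow family, whose founding gene acts in cuticle pigmentation. In Antennapedia[73b] against Oregon[R] its ratio was 0.53, 0.36, 0.42 and 0.89 with Antennapedia[73b] in channel 1, and 0.43 and 0.26 on the arrays with Oregon[R] in channel 1 that had a value (arrays 50 and 51 had none). In Apterous[56f] against Oregon[R] it had 0.55, 0.49, 0.26 and 0.54 with Apterous[56f] in channel 1, and 0.26, 0.54, 0.31 and 0.54 with Oregon[R] in channel 1. No array of either comparison lay below 0.26. The differences were 0.41 (SE 0.064, limma adjusted p = 1.7e-06) and 0.46 (SE 0.060, limma adjusted p = 7.9e-08), folds of 1.33 and 1.37, and between the mutants -0.04 (limma adjusted p = 0.71). On arrays of a strain against itself yellow-h ran from -0.19 to 0.53.

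bt (bent) encodes projectin, a giant protein of the sarcomere. Between the mutants it had 0.38, 0.41, 0.41 and 0.40 with Antennapedia[73b] in channel 1, and 0.10, 0.23, 0.22 and -0.03 with Apterous[56f] in channel 1, for a difference of 0.22 (SE 0.042, limma adjusted p = 5.8e-05). For Apterous[56f] against Oregon[R] it had 0.07, 0.19, 0.01 and 0.23 with Apterous[56f] in channel 1, and -0.27, -0.32, -0.33 and -0.27 with Oregon[R] in channel 1. The orientations did not overlap, and the dye offset of bt was 0.17. The fitted difference was -0.13 (limma adjusted p = 0.029), with none of the 4 subsets called alone (-0.18 to -0.07). Its 2 elements disagreed. For Antennapedia[73b] against Oregon[R] one stood at 0.28 (limma adjusted p = 4.8e-06) and the other at -0.09 (limma adjusted p = 0.24), so the gene's mean of 0.10, not called, joins unlike values. Between the mutants the same elements had 0.36 (limma adjusted p = 4.1e-08) and 0.09 (limma adjusted p = 0.29), so the gene's call there rests on the first. For Apterous[56f] against Oregon[R] they had -0.08 (limma adjusted p = 0.3) and -0.18 (limma adjusted p = 0.015). That call thus rests on the second, and the 2 calls of bt come from different elements.

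Ank is the ankyrin that ties membrane proteins to spectrin. It had 0.18 (SE 0.055, limma adjusted p = 0.014) in Antennapedia[73b] against Oregon[R] and 0.16 (limma adjusted p = 0.047) in Apterous[56f] against Oregon[R]. Its dye offset was 0.26. Ratios ran from 0.00 to 0.68 with Antennapedia[73b] in channel 1 and from -0.17 to 0.00 in the reverse order. For Apterous[56f] these were 0.27 to 0.68 and -0.26 to 0.13. The call in Antennapedia[73b] was kept in 2 of 4 subsets (0.11 to 0.25), and direct arrays alone gave limma adjusted p = 0.13. The call in Apterous[56f] was lost without any 1 of 17 arrays (46, 49, 50, 52, 56, 58, 60, 61, 62, 63, 65, 66, 67, 69, 70, 71 and 73), at 0.13 to 0.16 with a limma adjusted p of 0.05 to 0.13.

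The 9 listed genes without a row are not analysed here. They are pho, RpS3A, PlexA, pan, lgs, CaMKII, Arf102F, Caps and Dyrk3. For pho, the DNA-binding protein of the Polycomb group, 7 of 9 listed partners were tested. With Antennapedia[73b] against Oregon[R] esc (-0.26), phol (-0.18) and Sce (-0.14) were called minus, and in Apterous[56f] against Oregon[R] Sce was (-0.17). These are 42.9% and 14.3% of the 7, beside 23.2% and 15.9% of all features.

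The other 21 genes of chromosome 4 also had more plus than minus calls against Oregon[R]. In Antennapedia[73b] against Oregon[R] 9 were called plus and 1 minus, with a median of 0.07, and in Apterous[56f] against Oregon[R] 6 plus and 1 minus, with a median of 0.10. Between the mutants 3 were called on each side. For genes of the other arms tested the share called plus in Antennapedia[73b] against Oregon[R] was 10.6% (X) to 13.8% (2L), and in Apterous[56f] against Oregon[R] 6.7% (3L) to 9.57% (2L). The share of named genes of chromosome 4 called plus was 31.2% and 34.4%. No test of the list was made, since it was drawn up with results known. The apolipophorin gene apolpp, a carrier of blood lipids, had 0.48 in Antennapedia[73b] against Oregon[R], 0.10 in Apterous[56f] against Oregon[R] and 0.38 between the mutants. Taf3, a subunit of TFIID, had 0.24 in both mutants, eIF4G1, a scaffold of translation initiation, 0.23 and 0.20, and the glutamate receptor gene Ekar 0.24 in Apterous[56f] against Oregon[R]. CG11155 had 0.17 and 0.34 against Oregon[R] and -0.17 between the mutants.

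**Figure D3:**
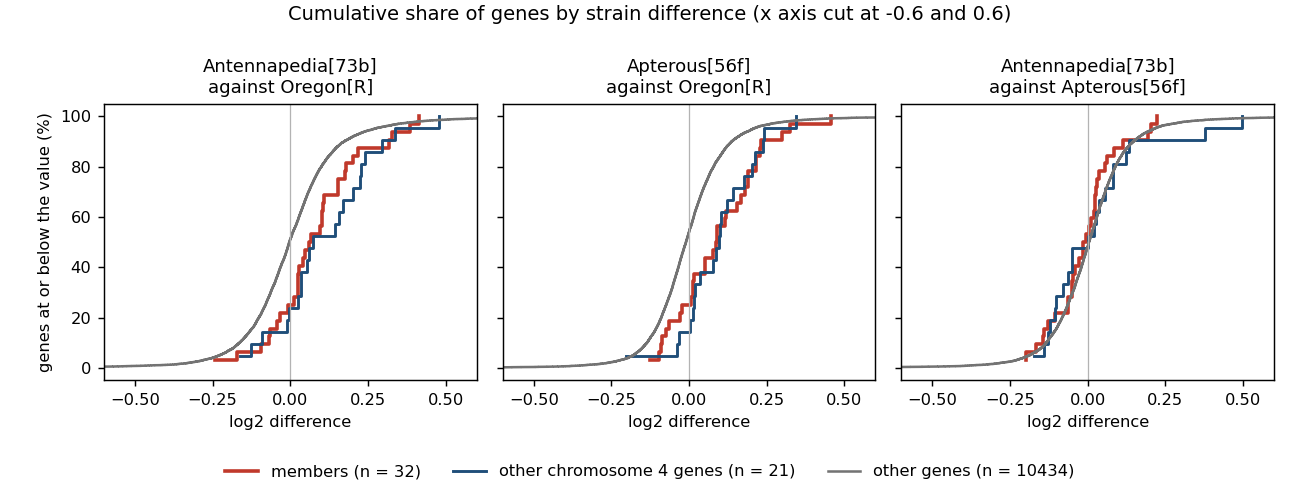
Share of genes (vertical axis, in percent) at or below each log2 difference (horizontal axis), for the 32 members, the other 21 chromosome 4 genes and 10434 other genes. In both comparisons with Oregon[R] the curves of chromosome 4 genes lie right of that of other genes over most of their range, with 24 of 32 members above 0, and between the mutants 15 of 32 lie above 0.

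Some neighbours on the chromosome had like values and others did not. Of 34 tested neighbouring pairs that include a member, both genes were called in 5 pairs in Antennapedia[73b] and 5 in Apterous[56f] against Oregon[R], and 1 of the 2 genes in 12 and 15 pairs. In these comparisons 37.5% and 37.5% of members were called, 47.6% and 33.3% of the other chromosome 4 genes, and 23.2% and 15.9% of all features. Whether neighbours were called together more often than other pairs of chromosome 4 genes was not tested. In the gene order of Release 6, counting protein-coding genes only, yellow-h lies between CG31999, at 0.34 and 0.21 against Oregon[R] in Antennapedia[73b] and Apterous[56f], and CG1674, at 0.29 and -0.20, all called. CG1674 differed by 0.50 between the mutants. Thd1 (0.18 and 0.23) and Pur-alpha (0.32 and 0.23) are neighbours. In the run Eph, mav, Gat the differences in Antennapedia[73b] against Oregon[R] were 0.15, 0.38 and 0.10, and in Apterous[56f] against Oregon[R] 0.09, 0.19 and 0.30. myo and its neighbour ey had 0.33 and 0.05 in Antennapedia[73b] against Oregon[R]. ATPsynbeta (-0.17) lies beside CG11076 (-0.16, called), a gene named after its values were seen.

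Regulators of the chromosome could be read for 4 of 8 listed. The gene that encodes HP1a was called minus in Antennapedia[73b] against Oregon[R] (-0.31, SE 0.056, limma adjusted p = 2.3e-05) and between the mutants (-0.28, limma adjusted p = 0.00017), and had -0.03 in Apterous[56f] against Oregon[R]. The other 3 tested were not called in any comparison. The share called was thus 25% in Antennapedia[73b] against Oregon[R] and between the mutants, beside 23.2% and 15.6% of all features. Neither Pof nor egg, the gene of Egg, was among the 4 tested, so these values do not cover them. The list's median was -0.13 in Antennapedia[73b] and -0.06 in Apterous[56f] against Oregon[R], where limma called 0 and 0 had an unadjusted p under 0.05.

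Markers of other tissues were called in the same comparisons. Of all features 23.2% were called in Antennapedia[73b] against Oregon[R], 15.9% in Apterous[56f] against Oregon[R] and 15.6% between the mutants. Neuron markers had 30% and 20% called against Oregon[R], and muscle markers 25% and 0%. Of 15 ovary and female fat body markers 10 were tested: 8 were called minus in Antennapedia[73b] against Oregon[R] (median -0.80, range -1.17 to 0.06) and 10 minus in Apterous[56f] against Oregon[R] (median -0.52, range -0.80 to -0.18), with 0 plus in both. Between the mutants 2 were plus and 7 minus (median -0.31). Accessory gland markers had 5 and 9 of 9 tested on the minus side (medians -0.30 and -0.38), and 5 plus and 0 minus between the mutants (median 0.18). Testis markers had 2 and 2 of 6 on the minus side (medians -0.05 and -0.14). Neuron markers had 2 plus and 1 minus, then 1 plus and 1 minus, of 10 tested (medians 0.05 and 0.04). Photoreceptor markers had 3 plus and 1 minus, then 5 plus and 1 minus, of 6 (medians 0.18 and 0.37). Muscle markers had 0 plus and 2 minus, then 0 of 8, with 1 at an unadjusted p under 0.05 in limma (medians 0.04 and -0.01). The part of these tissues in the differences of the chromosome 4 genes was not tested.

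On single arrays the members' median ratio shows the dye offset and the strain difference together. It averaged 0.14 ± 0.09 (SD, n = 4) with Antennapedia[73b] in channel 1 over Oregon[R], and 0.04 ± 0.07 (SD, n = 4) with Oregon[R] in channel 1 over Antennapedia[73b]. For Apterous[56f] over Oregon[R] it was 0.19 ± 0.07 (SD, n = 4), and for Oregon[R] over Apterous[56f] it was -0.02 ± 0.10 (SD, n = 4). For Antennapedia[73b] over Apterous[56f] it was 0.08 ± 0.12 (SD, n = 4), and for the reverse order 0.06 ± 0.05 (SD, n = 4). A strain against itself gave 0.13 ± 0.08 for Antennapedia[73b], 0.16 ± 0.08 for Apterous[56f] and 0.09 ± 0.05 for Oregon[R] (SD, n = 4 each). Arrays of Apterous[56f] over Oregon[R] (0.10 to 0.26) overlapped those of the reverse order (-0.13 to 0.10) at 0.10 only, and the arrays of Antennapedia[73b] over Oregon[R] (0.05 to 0.22) overlapped the reverse order (-0.07 to 0.09). The medians of other genes on these arrays lay between -0.05 and 0.06.

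**Figure D4:**
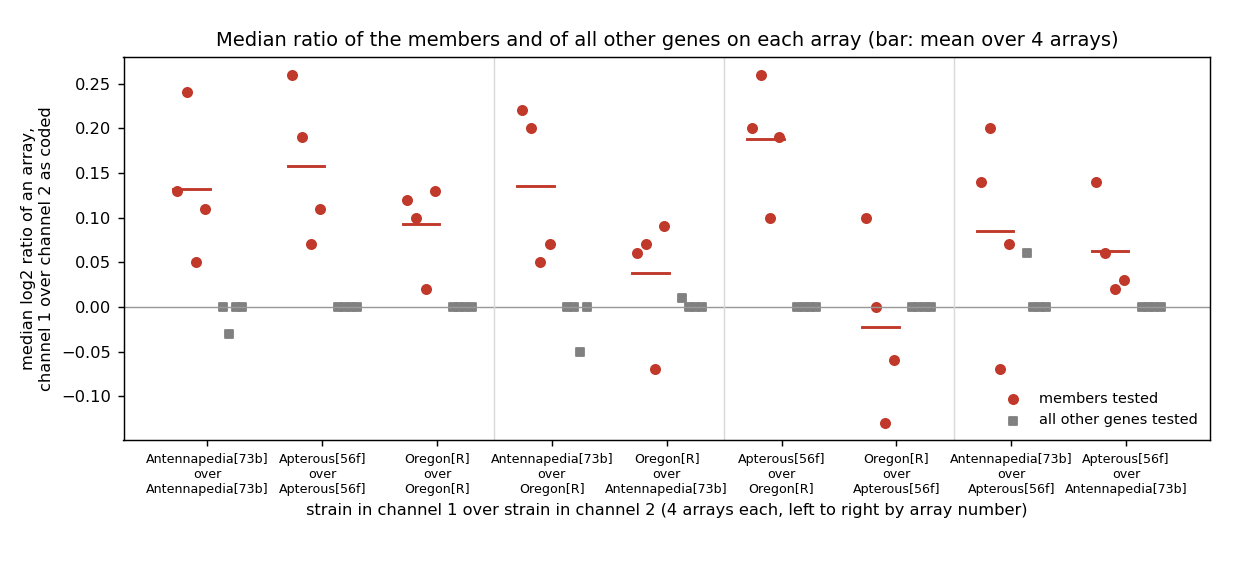
Median log2 ratio (vertical axis, channel 1 over channel 2) of the tested members (circles, bar for the mean of 4 arrays) and of all other tested genes (squares) on each of the 36 arrays, by the strains in channels 1 and 2 (horizontal axis). Self-hybridised arrays have member medians of 0.02 to 0.26, and the lowest group mean, -0.02, is that of Oregon[R] over Apterous[56f].

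Fits within each subset of arrays left the members' median on the same side of 0 against Oregon[R]. For Antennapedia[73b] against Oregon[R] it was 0.05 to 0.10, with 5 to 7 members called, and every call on a member that could be fitted kept its side. With Apterous[56f] against Oregon[R] the median was 0.06 to 0.08, with 2 to 6 members called. With 1 array left out at a time the members called numbered 8 to 12 in Antennapedia[73b] and 9 to 12 in Apterous[56f] against Oregon[R], and 5 to 7 between the mutants.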

How the data were processed

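The authors deposited, for each array, a signed fold between the 2 channels at every spot: a ratio of at least 1 in size, rounded to 1 decimal, whose sign gives its side. Per the labels, poly(A) RNA of adult flies was labelled with Cy3 (channel 1) and Cy5 (channel 2). The sources used here do not state how background was corrected or arrays were normalised. Of 31464 spots, pairs formed 15732 elements, and elements of 1 gene were averaged to 1 value per gene. Values were turned to signed log2 and arrays centred on their median. limma 3.58.1 in R 4.3.3 was fitted to all 36 arrays with a dye intercept and a term per mutant strain, two-sided, with Benjamini-Hochberg adjustment over 13355 features with at least 2 values in each of 9 groups. Gene names were updated by identifier through the RefSeq table of Release 6. One listed symbol, Caps, fits 2 genes there and was taken as Cadps only.

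Members, gene lists and tests were chosen with earlier results of these data known. Values per array are given for the 10 called members with the largest difference, plus Rad23 and ATPsynbeta. At most 3 called genes of a partner list and 5 of other chromosome 4 genes per comparison are named. On simulated data with 13355 features, the Antennapedia[73b] against Oregon[R] fit recovered 58 of 67 changes of 0.3, 67 of 67 of 0.6 and 66 of 66 of 1, and called 7 of 13155 unchanged features. The simulated noise was independent between arrays and not rounded, and few features were changed. Most called differences of members were smaller than 0.3. The simulation thus checks the code and does not give the power or the rate of false calls in these data. Alternatives were other centring and filters, blocks, single spots, subsets by array number, direct arrays alone and leaving out each array.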

Additional observations from a re-analysis of the deposited data

Results flagged for a closer look

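Of 65 groups of 4 arrays examined among the 12 members with values per array, 4 held an array far from the other 3, measured by its gap over the group's range. Chance alone marks about 1 in 20 such groups. For ATPsynbeta in Apterous[56f] against Oregon[R], array 68, with Apterous[56f] in channel 1, stood at -0.64 while the other 3 had 0.07 to 0.20. In the same comparison array 56, with Oregon[R] in channel 1, stood at 0.44 while the other 3 had -0.37 to -0.32. For bt in Antennapedia[73b] against Apterous[56f], array 58 stood at 0.38 beside 0.40 to 0.41, a gap below the rounding step of the deposited folds. For Cals in Antennapedia[73b] against Oregon[R], array 50, with Oregon[R] in channel 1, stood at 0.02 beside -0.26 to -0.23.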

How the results depend on the processing

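Of 30 called differences of members, 1554 values under other settings and with 1 array left out, elements as features apart, held 0 on the opposite side. Fits with 1 array left out share nearly all their data with the main fit, so a called difference could hardly change side there. For ci the 18 such fits left out only arrays without a ci value, so they tested nothing about ci. In the settings run the members' medians moved by less than the SD of the turned member medians of single direct arrays. That SD also holds the dye offset, which turning gives opposite signs in the 2 orientations. It is therefore a wide limit, and staying within it does not show that the medians are stable. Counts of members called fell in smaller fits, and the share of all features called, given in brackets, fell too. In Antennapedia[73b] against Oregon[R], with 12 called (23.2%), they were 6 with direct arrays alone (13%), 5 with even (14.2%) and 7 with odd arrays (13.3%), 7 with the first 2 (19.6%) and 5 with the last 2 arrays of a group (12.3%), 7 with the first spot of each pair (15.6%) and 6 without the dye term (16.2%). In Apterous[56f] against Oregon[R], with 12 (15.9%), they were 3 direct (5.14%), 2 even (6.72%), 6 odd (10.6%), 4 first 2 (11.1%), 6 last 2 (7.61%), 7 with the second spot (10.8%) and 5 without the dye term (9.27%). Even arrays there called 6.67% of 30 members. Between the mutants, with 6 (15.6%), they were 2 direct (7.13%), 2 even (8.1%), 3 first 2 (11.8%), 1 last 2 (7.78%), 3 second spot (11.4%) and 3 without the dye term (10.2%). Most of these fits hold fewer arrays or spots. For the dye term the cause was not tested. Leaving out 1 array gave 8 to 12, 9 to 12 and 5 to 7 calls in the 3 comparisons, with medians of 0.04 to 0.08, 0.07 to 0.10 and -0.03 to 0.01. For the 12 members with values per array, 23 called differences gave 400 values under other settings, of which 94 lost the call, and 806 with an array left out, of which 48 did. yellow-h against Oregon[R] (0.34 to 0.46 in Antennapedia[73b], 0.41 to 0.57 in Apterous[56f]) and mav in Antennapedia[73b] (0.28 to 0.49) kept the call in every setting that could be fitted, and yellow-h could be fitted in 1 of the 4 subsets of arrays. The coarse steps of the folds limit what small differences can show. With the first or last 2 arrays of a group as a block, even or odd numbers as a block, or both, 12, 12 and 6 members were called. No paired analysis was possible because array numbers are not shared between groups and a place in the order of a group pairs no samples.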
